A study of Mus musculus with 6 samples.

Results

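The genes described here are the 8 members of the VEGF, angiopoietin and apelin systems that were looked up by name in the lungs of bleomycin-injured mice: the ligands Vegfa, Angpt1 and Apln, and the receptors Kdr, Flt1, Tek, Tie1 and Aplnr. They are 8 of 32285 genes in the count matrices, and 25 other genes of the same pathways were listed beside them. Cells came from 6 male mice, 12 weeks old, of the C57BL/6 background with human CTLA4 sequence knocked in (hCTLA4), which the antibody binds. All 6 received bleomycin at 1.25 U per kg in 2 doses 2 weeks apart, and from day 21 after the second dose 3 of them received IgG1 and 3 received ipilimumab, a CTLA4-blocking antibody, at 5 mg per kg for 4.5 weeks. There was no uninjured group, so each level is a level in injured, antibody-treated lung. One 10x 3' library was made per mouse, and levels are given as CPM, the count of unique molecular identifiers (UMIs) of a gene scaled by the summed UMIs of the cells of a class in 1 mouse.

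VEGF-A is the main growth and survival factor of blood vessels. It signals through VEGFR2, encoded by Kdr, while VEGFR1, encoded by Flt1, binds it tightly with weak signaling and is also carried by cells of the macrophage lineage. Angiopoietin 1, which perivascular cells release, steadies vessels through the receptor Tie2, encoded by Tek, with Tie1 as its partner receptor. Apelin is a peptide that acts on a G protein–coupled receptor encoded by Aplnr. In the mouse lung, capillaries hold a large endothelial cell that carries carbonic anhydrase 4 (Car4) and the endothelin B receptor (Ednrb), and a more general capillary cell; both names are background here, since the cells were divided by counts alone.

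In all, 24322 cells were used, from 3271 to 4394 per mouse. Endothelial cells were divided by their summed Car4 and Ednrb UMIs into 331 cells with at least 2 and 709 cells with under 2. All 12 endothelial markers were found in at least 10% of the cells of both subsets. The cells with at least 2 were deeper, with a median of 7089 UMIs against 2836. Fibroblast-like cells numbered 428, epithelial-like cells 309 (222 AT2-like and 87 ciliated-like, with no AT1-like cluster) and leukocyte-like cells 21306. Only 14 pericyte-like cells were found, so pericytes have no treatment test. One library, ipilimumab replicate 1, stood apart: called barcodes held 79.0% of its UMIs, against 92.4% to 93.1% in the others, and it gave 218 of the 309 epithelial-like cells. B-like cells were taken as the background of free RNA. Their pooled levels were 6.47 CPM for Vegfa, 1.73 for Flt1, 1.23 for Angpt1 and under these for the other 5 genes. At most 8 cell barcodes were shared by any pair of libraries.

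In the annotation of the build the authors used (GRCm38), the genes lie at chr17:46016993-46032369 on the minus strand (Vegfa), chr5:75932827-75978458 minus (Kdr), chr5:147561604-147726011 minus (Flt1), chr4:94739289-94874976 plus (Tek), chr4:118471191-118490061 minus (Tie1), chr15:42424723-42676977 minus (Angpt1), chrX:48025146-48034853 minus (Apln) and chr2:85136225-85139923 plus (Aplnr). None overlaps another annotated gene on its own strand, and Angpt1 overlaps Gm17473 on the other. Promoters of 300 bases were taken from RefSeq for 6 of the 8 genes. Those shown here belong to the 4 genes with a RefSeq promoter whose levels differed most between the endothelial subsets, 2 of them higher and 2 lower in the cells with at least 2 Car4 and Ednrb UMIs. They are written 5′ to 3′ along the gene, and capitals mark the core of the ETS motif (GGAA, or TTCC on the other strand), which the endothelial factor ERG and its relatives can bind. That core is in 96.0% of all 32851 RefSeq promoters of this length, so its presence says little of any one of them.
Kdr, chr5:75978406-75978705, minus: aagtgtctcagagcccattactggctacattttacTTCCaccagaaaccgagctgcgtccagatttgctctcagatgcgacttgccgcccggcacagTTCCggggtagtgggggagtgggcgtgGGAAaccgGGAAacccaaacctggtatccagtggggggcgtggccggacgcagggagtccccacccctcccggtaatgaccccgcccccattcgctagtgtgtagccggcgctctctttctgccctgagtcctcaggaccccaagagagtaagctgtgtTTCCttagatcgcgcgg
Apln, chrX:48034804-48035103, minus: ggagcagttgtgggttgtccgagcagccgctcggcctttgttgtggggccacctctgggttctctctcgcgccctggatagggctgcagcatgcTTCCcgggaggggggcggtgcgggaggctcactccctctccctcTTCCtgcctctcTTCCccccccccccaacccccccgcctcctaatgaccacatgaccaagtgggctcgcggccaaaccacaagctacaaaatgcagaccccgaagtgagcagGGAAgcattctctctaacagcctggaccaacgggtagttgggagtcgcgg
Tek, chr4:94739039-94739338, plus: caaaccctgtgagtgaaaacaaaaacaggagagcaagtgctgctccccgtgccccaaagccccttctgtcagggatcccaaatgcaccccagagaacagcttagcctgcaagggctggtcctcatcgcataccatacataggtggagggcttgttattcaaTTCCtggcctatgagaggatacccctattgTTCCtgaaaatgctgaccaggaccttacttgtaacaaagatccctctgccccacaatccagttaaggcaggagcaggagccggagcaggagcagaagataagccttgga
Vegfa, chr17:46032328-46032627, minus: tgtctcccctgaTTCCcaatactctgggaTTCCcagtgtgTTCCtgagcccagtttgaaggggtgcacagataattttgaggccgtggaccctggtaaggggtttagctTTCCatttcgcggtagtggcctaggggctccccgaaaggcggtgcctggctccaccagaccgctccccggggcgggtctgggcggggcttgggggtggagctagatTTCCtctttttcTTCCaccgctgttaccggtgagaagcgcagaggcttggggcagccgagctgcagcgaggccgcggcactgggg

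The Kdr window held 5 matches to the core, Apln 4, Tek 2 and this Vegfa window 6, against a median of 3 over all promoters. The core of the hypoxia response element (ACGTG, or CACGT on the other strand) was in none of these 4 windows and in 19.6% of all promoters. A second Vegfa window, inside the gene, held 1 match. These matches were counted as letters, and no binding was measured.

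The genes had different homes in the injured lung. Of the UMIs of Apln in cells, 92.4% were in endothelial cells with at least 2 Car4 and Ednrb UMIs, and of those of Kdr, 82.3%. Endothelial cells with under 2 held 73.4% of Tek UMIs and 75.4% of Aplnr UMIs. The 2 subsets held 40.8% and 50.7% of Tie1 UMIs. Flt1, Vegfa and Angpt1 had most of their UMIs outside blood vessel endothelium: alveolar macrophage-like cells held 66.1% of Flt1 UMIs, leukocyte-like cells 74.1% of Vegfa UMIs, and NK-like cells 40.5% and fibroblast-like cells 26.9% of Angpt1 UMIs. These shares weigh each class by its number of captured cells and their depth.

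**Figure D1:**
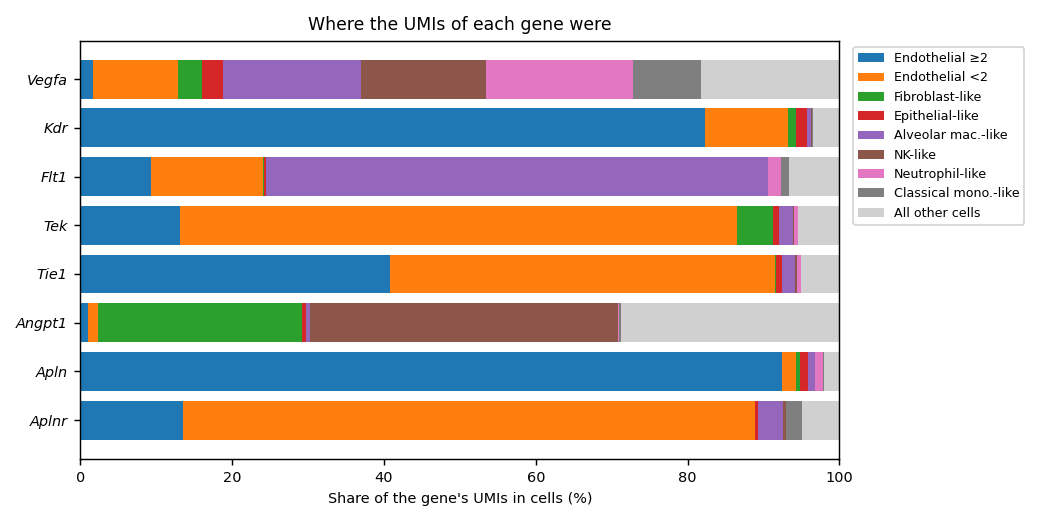
Share of each gene's UMIs, in percent of all its UMIs in cells of the 6 libraries, by cell class. Apln and Kdr UMIs were mostly in endothelial cells with at least 2 Car4 and Ednrb UMIs, Tek and Aplnr UMIs in those with under 2, and 66.1% of Flt1 UMIs in alveolar macrophage-like cells.

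Among the receptors, Kdr was the one that was higher in the cells with at least 2 Car4 and Ednrb UMIs. Its level in these cells was 2035, 1927 and 2463 CPM in IgG1 mice 1, 2 and 3 and 1928, 2273 and 1862 CPM in ipilimumab mice 1, 2 and 3. In cells with under 2 it was 246, 179 and 227 CPM in IgG1 mice and 278, 243 and 252 CPM in ipilimumab mice. The subsets did not overlap, and the means were 2081 ± 237 and 238 ± 33.1 CPM (SD, n = 6 mice), 8.76-fold apart. With mouse as a block, the log2 difference was 3.06 (SE 0.14, adjusted p = 3.53e-11 by edgeR's quasi-likelihood test with Benjamini-Hochberg adjustment). This contrast called 2708 of 6181 genes, 43.8%, so a call here is common, and the size of a difference tells more than the call. The exact sign-flip test of the 6 within-mouse differences gave p = 0.0312, the smallest that 6 mice allow, two-sided.

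Tek had the opposite order. Cells with under 2 had 963, 417 and 678 CPM of Tek in IgG1 mice and 705, 636 and 531 CPM in ipilimumab mice. Cells with at least 2 had 278, 217 and 74.8 CPM in IgG1 mice and 115, 106 and 81.2 CPM in ipilimumab mice. Every mouse had more Tek in the cells with under 2, with means of 655 ± 184 and 145 ± 82.9 CPM (SD, n = 6), 4.51-fold apart. The log2 difference was -2.34 (SE 0.22, adjusted p = 1.03e-07, edgeR), and the exact sign-flip p was again 0.0312.

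Tie1, the partner receptor, was nearly even. It ranged from 177 to 260 CPM in the cells with at least 2 and from 184 to 247 CPM in the others, and 1 of 6 mice had the higher level in the cells with at least 2. The log2 difference of -0.16 (SE 0.15) did not pass the test (adjusted p = 0.395, edgeR), and the exact sign-flip p was 0.531.

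Flt1 was high in both subsets. It was 1110, 1174 and 873 CPM in the cells with at least 2 of IgG1 mice and 772, 1023 and 710 CPM in those of ipilimumab mice. In the cells with under 2 it was 1305, 1052 and 879 CPM in IgG1 mice and 1196, 1272 and 1519 CPM in ipilimumab mice. The values overlapped, and the log2 difference of -0.41 (SE 0.15) passed the edgeR test by little (adjusted p = 0.0407). That call was lost without IgG1 mouse 1 (adjusted p = 0.0604) and without ipilimumab mouse 1, 2 or 3 (0.134, 0.0714 and 0.144), and the exact sign-flip p was 0.0938.

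Aplnr, the apelin receptor, was low but ordered. Its level was 83.5, 70.5 and 48.1 CPM in the cells with under 2 of IgG1 mice and 61.7, 60.2 and 70.2 CPM in those of ipilimumab mice. In cells with at least 2 it was 15.9, 12.8 and 12.5 CPM in IgG1 mice and 17.4, 10.6 and 9.44 CPM in ipilimumab mice. The ranges did not overlap, and the means of 65.7 ± 11.95 and 13.1 ± 3.03 CPM (SD, n = 6) were 5.02-fold apart. The fitted log2 difference was -2.33 (SE 0.26). These values rest on 184 and 33 UMIs in all, and Aplnr passed the low-count filter through the subset where it was higher, so no p is given.

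Its ligand Apln lay in the other subset. Apln was 262, 204 and 422 CPM in the cells with at least 2 of IgG1 mice and 319, 227 and 276 CPM in those of ipilimumab mice. In the cells with under 2 it was 4.07 CPM in IgG1 mouse 1 and 13.4, 2.41 and 2.92 CPM in ipilimumab mice. No Apln UMI was counted there in IgG1 mice 2 and 3, which allows up to 16.3 and 13.1 CPM by counting error alone. The lowest mouse of one subset was far above the highest of the other, and the means of 285 ± 77.9 and 3.80 ± 4.98 CPM (SD, n = 6) were 74.9-fold apart. The fitted log2 difference was 5.65 (SE 0.30), with no p given, since Apln too passed the filter through the subset where it was higher. Of 331 cells with at least 2, 211 had a UMI of Apln alone, 14 of Aplnr alone and 3 of both. Of 709 cells with under 2, 137 had a UMI of Aplnr alone, 12 of Apln alone and 1 of both. Ligand and receptor transcripts were thus rarely counted in the same cell, with Aplnr seldom counted in the first subset at all.

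Vegfa was also counted in endothelial cells, chiefly in those with under 2. There it was 507, 369 and 332 CPM in IgG1 mice and 421, 347 and 363 CPM in ipilimumab mice. In the cells with at least 2 it was 122, 123 and 14.6 CPM in IgG1 mice and 43.4, 78.1 and 51.0 CPM in ipilimumab mice. The means of 390 ± 64.9 and 72.1 ± 44.1 CPM (SD, n = 6) were 5.41-fold apart, with a log2 difference of -2.66 (SE 0.24, adjusted p = 9.00e-08, edgeR). Every mouse had the higher level in the cells with under 2. Angpt1 was low in both subsets, from 0 to 46.8 CPM and from 2.68 to 24.4 CPM, and did not pass the low-count filter.

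**Figure D2:**
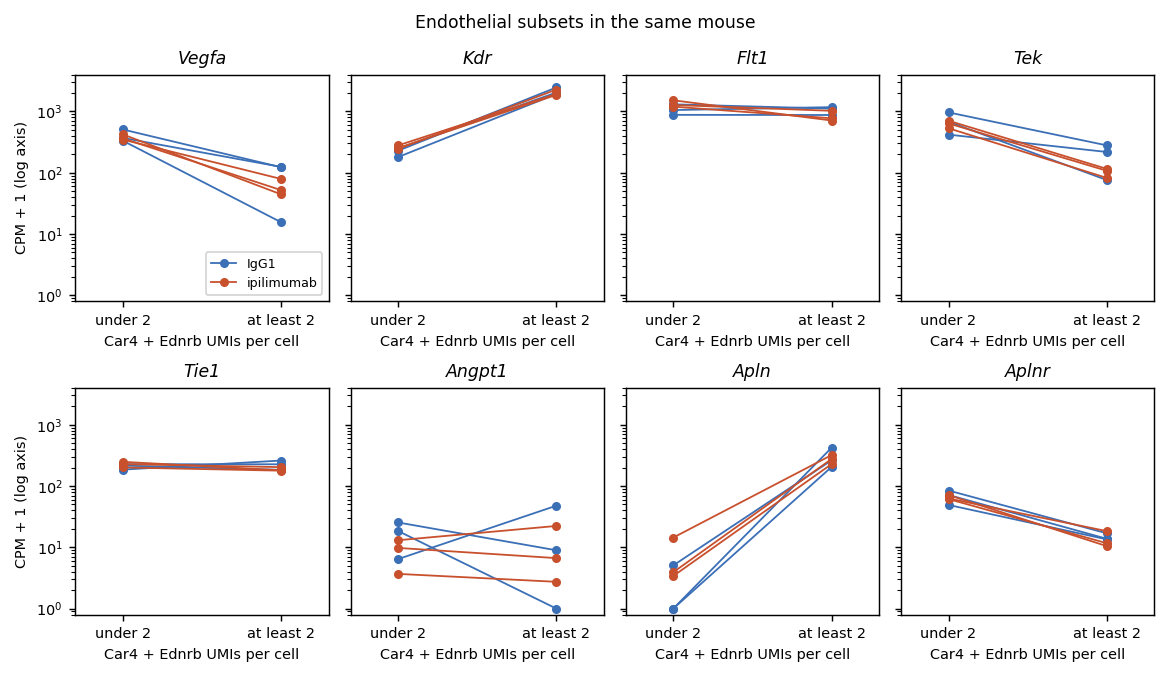
Level of each gene in the endothelial subsets of the same mouse, as CPM + 1 on a log axis, with a line per mouse (n = 6, colored by treatment). Kdr and Apln rise from the cells with under 2 to those with at least 2 Car4 and Ednrb UMIs in 6 of 6 mice, Tek, Aplnr and Vegfa fall in 6 of 6, and Tie1 and Flt1 stay close.

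Of the 8 genes, Angpt1 was not tested between the subsets, and Apln and Aplnr passed the filter only through the subset where each was higher. Of the other 5, Kdr was called higher, Vegfa, Tek and Flt1 were called lower in the cells with at least 2, and Tie1 was not called. Since the gate was an absolute count, cells with more UMIs could reach it more easily. With a gate of 2 per 10000 UMIs in its place, the log2 differences of Kdr, Apln, Tek, Aplnr and Vegfa were 3.18, 7.37, -2.26, -2.20 and -2.54. Thinning cells to 1000 UMIs each came after the gate was set, so it evened the depth of the measured genes but not that of the gate. With it, the log2 differences of Kdr, Tek and Vegfa were 3.09, -2.90 and -3.26, and Apln and Aplnr no longer passed the filter. A Leiden cluster led by Prickle2, Kdr and Ednrb held 304 of the 331 cells with at least 2, and another held 664 of the 709 with under 2. The 8 genes had been kept out of the clustering. Car4 and Ednrb had not, so the overlap of the clusters with the gate may be partly built in. Of the 8 AT1 markers, Hopx and Clic5 were also high in the first subset, at 839 against 103 CPM and 1330 against 430 CPM, while the other 6, Ager among them, were each under 6 CPM in both; their part was not tested. Without ipilimumab mouse 1, the library that stood apart and whose cells with at least 2 had a median of 2617 UMIs, the log2 differences of Kdr, Apln, Tek, Aplnr and Vegfa were 3.15, 6.57, -2.26, -2.46 and -2.50.

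Levels changed with the gating count itself, and for Kdr, Tek and Vegfa the largest change came between 3 and 4 or more UMIs. Over cells with 0, 1, 2, 3 and 4 or more Car4 and Ednrb UMIs, the pooled Kdr level was 228, 383, 485, 507 and 2284 CPM. Apln went from 1.69 through 29.1, 32.4 and 109 to 331 CPM. Tek was 670, 714, 492, 572 and 80.4 CPM, and Vegfa 399, 407, 278, 340 and 30.2 CPM. Aplnr was 63.7, 87.2, 97.05, 36.2 and 5.94 CPM, so it was highest at 2 UMIs. The 38 and 31 cells at 2 and 3 UMIs, just inside the gate, therefore lay nearer in Kdr, Tek and Vegfa to the 103 cells at 1 UMI, just outside it, than to the 262 cells at 4 or more. They were also shallow, with medians of 1270 and 1456 UMIs against 8032 in the last group. Of the UMIs counted in the cells with at least 2, that last group held 176 of 331 for Tek, 66 of 156 for Vegfa and 13 of 33 for Aplnr. The rest came from the cells at 2 and 3 UMIs. The bins pool all mice, and levels per mouse were not taken in them. Gates of 1, 2 and 3 UMIs kept 152, 106 and 85 cells of ipilimumab mouse 1, the largest drops of any mouse. The library that stood apart thus weighs most in the bins next to the gate. With a gate of 3, the log2 differences of Tek, Aplnr and Vegfa were -2.66, -3.16 and -3.02.

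**Figure D3:**
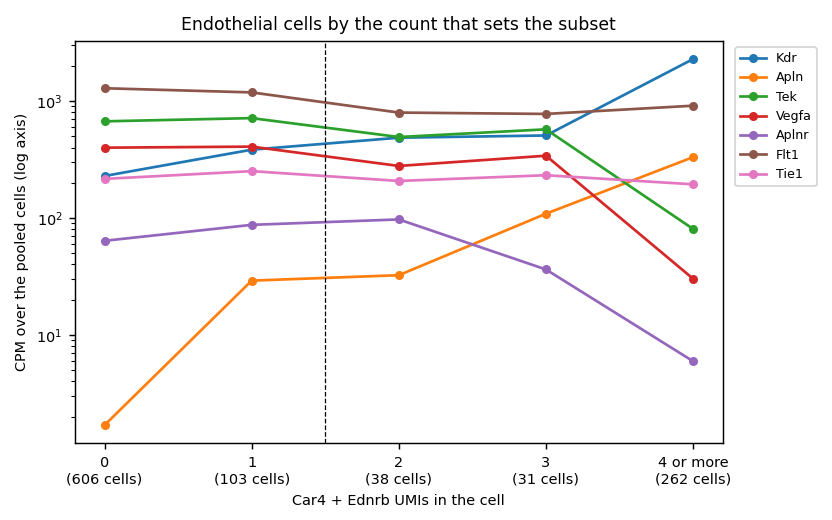
Pooled level in CPM (log axis) of 7 of the genes over the 1040 endothelial cells, grouped by the summed Car4 and Ednrb UMIs of the cell, with the gate as a dashed line. Kdr and Apln are highest and Tek, Vegfa and Aplnr lowest in the 262 cells with 4 or more.

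By the share of cells with a UMI, the order was that of the levels for 5 of the genes. Kdr was counted in 92.7% of the cells with at least 2 and 46.0% of the others, and Apln in 64.7% and 1.83%. Tek was counted in 27.2% and 72.8%, Vegfa in 11.5% and 56.8%, and Aplnr in 5.14% and 19.5%. For Flt1 and Tie1 the shares went the other way from the levels, with 84.9% against 78.7% for Flt1 and 62.8% against 45.0% for Tie1, and after thinning they were 55.0% against 65.4% and 16.4% against 18.5%. After thinning to 1000 UMIs, which left 298 and 589 cells, the shares of the others were 78.2% and 21.1% for Kdr, 23.2% and 0.679% for Apln, 7.72% and 49.6% for Tek, 3.36% and 33.1% for Vegfa and 0.336% and 5.43% for Aplnr. In B-like cells, with a median of 5602 UMIs, the unthinned share was 2.93% for Vegfa, 0.837% for Flt1 and at most 0.413% for the others. The Apln share in the cells with under 2 was above the 0.0803% of B-like cells.

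Some of the other genes of the pathways differed between the subsets too, as did many genes outside them. Of the 25, 14 passed the filter, and 9 were called, 2 higher and 7 lower in the cells with at least 2. Over all genes tested, 2708 of 6181 were called, 43.8%, with 1286 higher and 1422 lower. Among the 9, Nrp2 passed the filter only through the subset where it was higher, so no p is given for it. Higher were Nrp1, a co-receptor of VEGF, with a log2 difference of 2.14 (SE 0.13), and the junction cadherin Cdh5, with 0.77 (SE 0.13). Lower were Ptprb, the phosphatase that restrains Tie2, at -3.04 (SE 0.30), Shb at -2.71, Nrp2 at -2.62 (which did not pass the filter in the cells with at least 2 alone), the VEGF-responsive diaphragm protein Plvap at -2.51, Vegfc at -2.28, Hif1a at -1.15 and Foxo1, a factor that the Tie2 pathway holds out of the nucleus, at -1.03. With Nrp2 left out, the adjusted p of these genes ranged from 9.60e-10 to 2.57e-04 (edgeR). Flt4, the VEGF-C receptor, at 0.24 (SE 0.24), Dll4 at 0.39 (SE 0.19), Epas1 at -0.01 (SE 0.11), Erg at 0.16 (SE 0.18) and Plcg1 at -0.13 (SE 0.19) did not pass. Ptprb was 527, 676 and 72.8 CPM in the cells with at least 2 of IgG1 mice and 200, 146 and 217 CPM in those of ipilimumab mice, against 1512 to 2690 CPM in the cells with under 2. Tek and the phosphatase that acts on its product were thus both low in the same subset. Markers of other cells were counted in both subsets. The 6 B-cell markers summed to 0 to 271 CPM in the cells with at least 2 and 32.5 to 464 CPM in the others, the 6 T-cell markers to 0 to 28.4 and 2.41 to 236 CPM, the 8 AT2 markers to 51.0 to 543 and 42.4 to 113 CPM, and the 11 fibroblast markers to 2.08 to 349 and 4.37 to 21.9 CPM. The highest fibroblast sum was in the cells with at least 2 of IgG1 mouse 2, the mouse with the 46.8 CPM of Angpt1 there. Their part in the differences was not tested.

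Outside endothelium, Angpt1 was counted chiefly in pericyte-like, smooth muscle-like, fibroblast-like and NK-like cells. Pericyte-like cells had 2169 CPM of Angpt1 over 14 cells, a level that rests on 135 UMIs. In the 5 mice with such cells, which had 1 to 5 of them each, it was 954 and 1855 CPM in IgG1 mice 1 and 2 and 5043, 2494 and 2118 CPM in ipilimumab mice 1, 2 and 3. No UMI of Vegfa, Kdr, Flt1, Tie1, Apln or Aplnr was counted in these 14 cells, which by counting error allows a UMI in up to 21.4% of such cells and sets no limit on how many express the gene. Fibroblast-like cells had 163, 263 and 185 CPM of Angpt1 in IgG1 mice and 163, 147 and 136 CPM in ipilimumab mice. Another 39 cells, led by Npnt, had 882 CPM. They came from the smooth muscle-like cluster but scored highest for fibroblast markers (2.18, with AT1 next at 0.254). They were kept out of the fibroblast-like class. Smooth muscle-like cells ranged from 21.6 to 180 CPM over 5 mice. The receptor Tek was counted in fibroblast-like cells too, at 26.5 to 53.3 CPM, above the 0.134 to 1.18 CPM of B-like cells in every mouse.

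NK-like cells were the other place of Angpt1. They had 75.9, 77.5 and 86.6 CPM in IgG1 mice and 91.5, 97.4 and 146 CPM in ipilimumab mice, with a UMI in 24.7% of 1469 cells. The NK-like range reached into the fibroblast-like one and overlapped that of smooth muscle-like cells. T-like cells had 0 to 1.98 CPM, below the NK-like level in every mouse. Pericyte markers in NK-like cells summed to 1.53 CPM with 3 of 9 at 0, and fibroblast markers to 3.37 CPM with 1 of 11 at 0. The part of RNA from such cells in the NK-like Angpt1 level was not tested.

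Flt1 was carried by the macrophage and monocyte side of the lung as well. Alveolar macrophage-like cells had 238, 227 and 253 CPM in IgG1 mice and 275, 214 and 129 CPM in ipilimumab mice, with a UMI in 85.5% of 3187 cells at a median of 21950 UMIs and in 18.9% after thinning to 1000. Nonclassical monocyte-like cells had 140 to 334 CPM, and these ranges overlapped. Classical monocyte-like cells followed at 18.6 to 76.4 CPM and neutrophil-like cells at 29.2 to 70.6 CPM, which overlapped each other and lay below both. NK-like, T-like and B-like cells were at 2.67 CPM or less. The 12 endothelial markers summed to 73.5 to 100 CPM in alveolar macrophage-like cells, below the Flt1 level in each mouse, and the part of endothelial RNA in that level was not tested.

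Vegfa had several sources of a like level. Behind the endothelial cells with under 2 came neutrophil-like cells with 262, 232 and 233 CPM in IgG1 mice and 204, 169 and 257 CPM in ipilimumab mice. Classical monocyte-like cells ranged from 147 to 273 CPM, AT2-like cells from 107 to 322 CPM over the 5 mice with at least 5 such cells, and NK-like cells from 127 to 207 CPM. Interstitial macrophage-like cells were the most spread, from 54.7 to 420 CPM over 5 mice, which reached into the range of the endothelial cells with under 2. The cells of the smooth muscle-like cluster that scored as fibroblasts had 307 and 233 CPM in ipilimumab mice 1 and 3, which alone had at least 5 such cells. Neighbors in the order from neutrophil-like to interstitial macrophage-like cells overlapped, and fibroblast-like cells followed at 46.6 to 120 CPM, below the NK-like range. The neutrophil-like range was below the range of endothelial cells with under 2, and alveolar macrophage-like cells, at 12.7 to 43.1 CPM, were near the low end. Vegfa in the empty-droplet RNA of the libraries was 60.6 to 134 CPM, above its level in alveolar macrophage-like and B-like cells of every mouse.

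**Figure D4:**
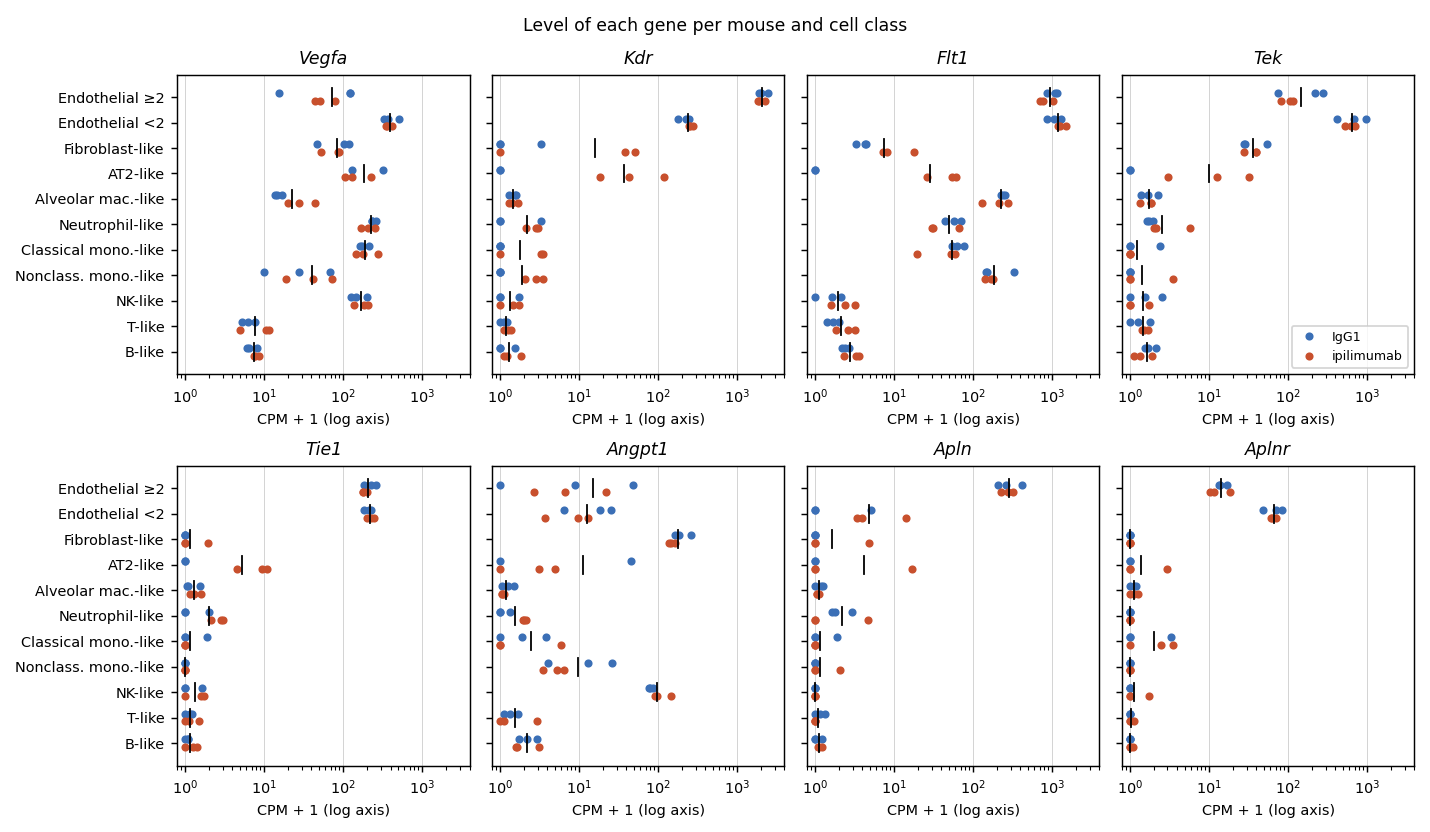
Level of each gene per mouse (points, colored by treatment, in classes with at least 5 cells of that mouse) and mean over mice (black line) in 11 cell classes, as CPM + 1 on a log axis. Kdr, Tie1, Apln and Aplnr stand out in endothelial cells, Flt1 also in macrophage and monocyte classes, Angpt1 in fibroblast-like and NK-like cells, and Vegfa in many.

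The ligands and receptors listed beside these genes filled in the sources. Vegfd was highest in fibroblast-like cells, at 92.9 to 190 CPM, against 4.37 to 18.7 CPM over both endothelial subsets. Angpt4 was at 0 to 32.2 CPM in fibroblast-like cells and at 0 to 4.03 CPM in endothelial subsets. Vegfb was at 19.0 to 56.6 CPM in fibroblast-like cells. Angpt2, the context-dependent partner of Angpt1, was low, at 0 to 36.2 CPM over the endothelial subsets, and Pgf was at 11.9 to 34.6 CPM in fibroblast-like cells. Apela, the second apelin receptor ligand, had no UMI in endothelial, fibroblast-like or leukocyte-like cells. Flt4 was 472 CPM in 26 lymphatic endothelial-like cells and 28.3 to 59.0 CPM over the blood endothelial subsets.

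As a description over 18 cell classes, the genes with the most similar profile, by Pearson's r of mean log2(CPM + 10), were Pcdh12 and Ecscr for Kdr (0.989 and 0.986), Ephb4 and Ldb2 for Tek (0.990 and 0.985), Nova2 and Cyyr1 for Tie1 (0.996 and 0.995), Rprml and Gm30648 for Apln (0.999 and 0.998) and Sema3g and Sox11 for Aplnr (0.998 and 0.996). For Flt1 they were Scarb1 and Ampd3 (0.914 and 0.903), for Angpt1 Plekhf1 and Armcx2 (0.936 and 0.857), and for Vegfa Nos1ap and Trim30d (0.753 and 0.727). The classes share libraries and differ in depth, 1 class scored by ILC2 markers held 116 of its 188 cells in a cluster led by T-cell genes such as Ikzf2, Ctla4 and Foxp3, Ecscr was itself a marker used to name endothelial cells, and 12433 genes were compared.

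Ipilimumab changed none of the 8 genes past the threshold in any class tested, and the tests called no gene at all, 0% of those tested in each of the 8 classes. In endothelial cells with at least 2, edgeR called 0 of 6231 genes (492 at an unadjusted p under 0.05, and 2 called by DESeq2). In those with under 2 it called 0 of 6080 (386, and 2 by DESeq2). For fibroblast-like cells the count was 0 of 6935 (478, and 7 by DESeq2), for epithelial-like cells 0 of 7041 (253, and 10 by DESeq2) and for leukocyte-like cells 0 of 15899 (419, and 3 by DESeq2). Alveolar macrophage-like, NK-like and neutrophil-like cells, added after the data were seen, gave 0 of 12497 (518, and 1 by DESeq2), 0 of 8807 (489, and 0 by DESeq2) and 0 of 5980 (358, and 0 by DESeq2).

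In endothelial cells with at least 2, 6 of the 8 genes passed the filter, and their fitted differences with ipilimumab were all below 0 without passing the test. Other markers moved beside them: in these cells the T-cell markers summed to 2.65, 0 and 4.16 CPM in IgG1 mice and 10.4, 28.4 and 24.5 CPM in ipilimumab mice, the AT2 markers to 87.4, 51.0 and 74.8 CPM and to 543, 81.7 and 108 CPM, and the endothelial markers to 17690 to 18660 CPM and to 16720, 18390 and 16440 CPM. Their part in the differences was not tested. Tek was the largest, at a log2 difference of -0.90 (SE 0.35, unadjusted p = 0.0218, adjusted p = 0.543, edgeR). It was 278, 217 and 74.8 CPM in IgG1 mice and 115, 106 and 81.2 CPM in ipilimumab mice, so the lowest IgG1 mouse lay below all ipilimumab mice. Without that mouse, IgG1 replicate 3, the difference was -1.34 with an adjusted p of 0.0273, and with no low-count filter it was -0.89 with 0.0173, and under the other settings tried its adjusted p ranged from 0.398 to 0.999. Vegfa was at -0.56 (SE 0.49), Flt1 at -0.35 (SE 0.18), Tie1 at -0.26 (SE 0.19), Apln at -0.14 (SE 0.23) and Kdr at -0.10 (SE 0.16). Angpt1 and Aplnr were not tested there.

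In endothelial cells with under 2, the 6 genes tested lay between -0.15 and 0.30 on the log2 scale. Flt1 was at 0.30 (SE 0.24), Kdr at 0.24 (SE 0.22), Tie1 at 0.10 (SE 0.23), Aplnr at -0.10 (SE 0.31), Vegfa at -0.10 (SE 0.23) and Tek at -0.15 (SE 0.28). Their adjusted p ranged from 0.883 to 0.985, and Angpt1 and Apln were not tested. When the treatment difference itself was compared between the subsets, 16 of 6181 genes were called, 0.259%, and none of the 7 members tested was. Flt1 came nearest, at -0.72 (SE 0.25, unadjusted p = 0.00893, adjusted p = 0.507, edgeR), with the treatment difference lower in the cells with at least 2.

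Outside endothelium, Angpt1 in fibroblast-like cells was lower with ipilimumab by fit, at -0.48 (SE 0.22, adjusted p = 0.722, edgeR), with 163, 263 and 185 CPM in IgG1 mice and 163, 147 and 136 CPM in ipilimumab mice. In these cells of ipilimumab mouse 1, fibroblast markers summed to 13710 CPM and AT2 markers to 924 CPM. In the other mice they summed to 20850 to 24410 CPM and to 16.9 to 60.6 CPM, and their part was not tested. In NK-like cells Angpt1 was higher with ipilimumab by fit, at 0.49 (SE 0.16, unadjusted p = 0.0066, adjusted p = 0.867, edgeR). There the lowest ipilimumab mouse, 91.5 CPM, lay above the highest IgG1 mouse, 86.6 CPM. How many other genes separate the groups in this way was not counted, and 489 of 8807 genes in this class had an unadjusted p under 0.05. Vegfa in alveolar macrophage-like cells was at 1.10 (SE 0.29, unadjusted p = 0.00536, adjusted p = 0.884, edgeR). It was 12.7, 16.1 and 13.6 CPM in IgG1 mice and 19.1, 27.1 and 43.1 CPM in ipilimumab mice, which did not overlap. Here too the other genes that separate the groups were not counted, and 518 of 12497 genes had an unadjusted p under 0.05. These Vegfa levels were above the 5.14 to 7.65 CPM of B-like cells and below the 60.6 CPM or more of empty-droplet RNA. The part of free RNA in them was not tested. Flt1 in the same cells was at -0.23 (SE 0.22). Ipilimumab mouse 3 stood apart in this class: the 7 alveolar macrophage markers summed to 29380 CPM there and to 8735 to 10460 CPM in the other 5 mice, and it had the highest Vegfa and the lowest Flt1. Without that mouse the log2 differences were 0.70 for Vegfa and -0.0025 for Flt1. Vegfa was at 0.17 (SE 0.16) in NK-like and -0.27 (SE 0.17) in neutrophil-like cells, and Flt1 at -0.51 (SE 0.29) in the latter. Of the other pathway genes none was called in any of the 8 classes.

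**Figure D5:**
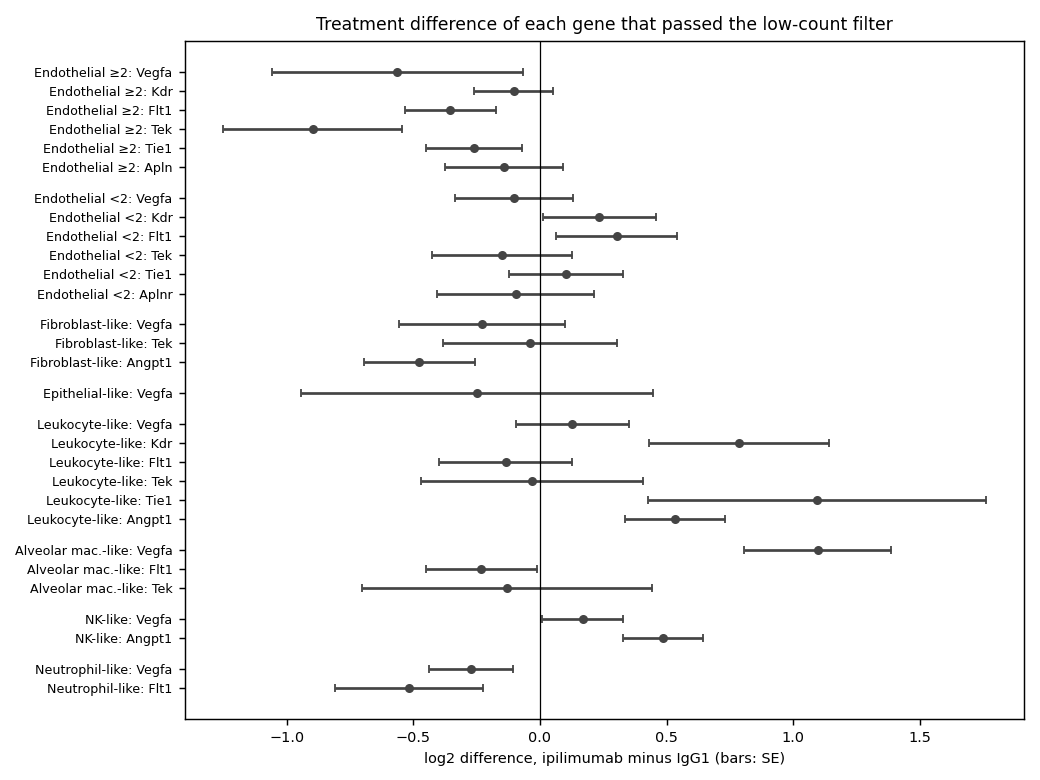
Fitted log2 difference of ipilimumab minus IgG1 (points) with its standard error (bars) for each of the 8 genes that passed the low-count filter, in 8 cell classes (n = 3 mice per group). None passed the adjusted threshold, and the points lie between -0.90 and 1.10.

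The leukocyte-like sum mixes classes, and its makeup varied between mice; the part of this in its values was not tested. Alveolar macrophage-like cells gave from 23.2% to 45.8% of its UMIs, and neutrophil-like cells from 2.43% to 8.03%. In that sum Angpt1 was at 0.53 (SE 0.20), Kdr at 0.79 (SE 0.35), Tie1 at 1.09 (SE 0.67), Vegfa at 0.13 (SE 0.22), Flt1 at -0.13 (SE 0.26) and Tek at -0.03 (SE 0.44), all with an adjusted p of 0.9996. The levels of Kdr and Tie1 there were at most 0.766 and 0.433 CPM. In epithelial-like cells Vegfa was the one member that passed the filter, at -0.25 (SE 0.69). This sum mixes AT2-like cells, with 161 CPM of Vegfa pooled over mice, and ciliated-like cells, with 10.4 CPM. Its AT2 markers summed to 336 CPM in IgG1 mouse 3, where Vegfa was 14.8 CPM, and to 33120 to 202800 CPM in the other mice, where Vegfa was 65.8 to 161 CPM, and without that mouse the difference was -0.84. The part of this makeup in the difference was not tested. Kdr there was 0 in IgG1 mice, which allows up to 8.20, 42.7 and 11.1 CPM, and 76.8, 8.26 and 23.9 CPM in ipilimumab mice. The 12 endothelial markers moved with it, summing to 76.5, 56.9 and 25.9 CPM in IgG1 mice, with 7 to 11 of them at 0, and to 743, 274 and 316 CPM in ipilimumab mice, with at most 1 at 0, and their part in the Kdr level was not tested.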

How the data were processed

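Whole-lung cell suspensions of 6 mice, 3 given IgG1 and 3 given ipilimumab, were measured with the 10x 3' v3.1 kit, 1 library per mouse. The authors deposited unfiltered counts of UMIs per gene and barcode, from Cell Ranger 7.0.0 and mm10 per the submitters' processing notes, while the file header names version 4 and the study's methods name another Cell Ranger version. Whether intronic reads were counted is not given in the sources used here. Libraries held 37666042 to 48612412 UMIs.

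From these counts, cells were called by a UMI threshold and then by comparison with empty droplets. Cells with under 200 genes or over 10% mitochondrial UMIs and predicted doublets were removed. Cells were clustered (scanpy 1.11.5, Leiden 0.10.2, resolution 0.8) without the 8 genes or the 25 pathway genes and named from marker lists. The few pericyte-like cells came from clustering the smooth muscle-like cells once more, a step added after seeing the data. Counts of each class were added up within a mouse, and edgeR 4.0.16 (quasi-likelihood test, TMM, filterByExpr, R 4.3.3) was fitted to all genes. A gene was called at a Benjamini-Hochberg adjusted p under 0.05 and an absolute log2 difference over 0.3. Subsets were compared with mouse as a block, without Car4 and Ednrb among the genes tested, and by an exact two-sided sign-flip test on log2(CPM + 10). A level per mouse in the plot of levels needed 5 cells.

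DESeq2 1.42.0, other size factors, filters, gates, cell calls, doublet and ambient treatments, clustering and left-out mice were tried. Thinning for the subset fit, the cluster in place of the gate, and the tests of alveolar macrophage-like, NK-like and neutrophil-like cells were chosen after seeing the data. The test code was checked on simulated data. All 8 genes were named. Pathway genes were named if called or if ligands or receptors, and for each of the 8 the 2 most similar genes were named. The genes and lists were chosen with earlier results of these data known. Intervals and limits for a count of 0 (3 counts) cover counting error only. Treatment p-values are set against the spread between mice. Subset and interaction p-values with mouse as a block, and the sign-flip p-values, are set against the spread over mice of the differences within a mouse.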

Additional observations from a re-analysis of the deposited data

Results flagged for a closer look

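The treatment difference itself differed between the endothelial subsets for 16 of 6181 genes (edgeR's quasi-likelihood test with Benjamini-Hochberg adjustment, interaction term with mouse as a block), which is what singled this result out. None of the 16 was among the 8 genes or the 25 pathway genes described here, and 430 genes had an unadjusted p under 0.05. The count was 4 with a gate of 1 UMI, 6 with 2 per 10000 UMIs and 0 with 3 UMIs. Of the 7 members tested, Flt1 had the smallest p, with a log2 interaction of -0.72 (SE 0.25, adjusted p = 0.507).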

How the results depend on the processing

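The cause of each change below was not tested. DESeq2 called 2 genes for treatment in endothelial cells with at least 2 Car4 and Ednrb UMIs, 2 in those with under 2, 7 in fibroblast-like, 10 in epithelial-like, 3 in leukocyte-like and 1 in alveolar macrophage-like cells. With no low-count filter these counts were 133, 109, 240 and 44, with 1 in alveolar macrophage-like, 29 in NK-like and 51 in neutrophil-like cells and 104 for the interaction. The replicate block gave 8, 2 and 1 in the endothelial subsets and fibroblast-like cells, 2 in NK-like and 1 in neutrophil-like cells, and turned epithelial-like Vegfa to 0.12. The sources used here do not say whether mice of the same number were paired, and correlations over 3 mice per group cannot settle it. Deviations of same-numbered mice correlated at 0.00, 0.03 and -0.02 in the cells with at least 2 and at 0.22, 0.33 and -0.29 in leukocyte-like cells, and not every mouse correlated best with its own number. Cells called by the threshold alone gave 2 genes in the cells with at least 2, a subset difference of Flt1 of -0.39 that no longer passed, and leukocyte-like Tek of 0.074. Subtracting ambient RNA gave 10 in the cells with at least 2 and 3 in fibroblast-like cells. Keeping doublets gave 4 in the cells with under 2, 3 in fibroblast-like and 2 in epithelial-like cells, fibroblast-like Vegfa of 0.040 and Tie1 of -0.032 in the cells with under 2. The Flt1 subset difference also no longer passed at resolution 1.6 (-0.37) or with no mouse block (-0.41). Thinning left 657 calls of 1178 genes between subsets and moved the shares of cells with a UMI to 3.36% (Vegfa), 78.2% (Kdr), 55.0% (Flt1), 7.72% (Tek), 16.4% (Tie1), 23.2% (Apln) and 0.336% (Aplnr) in the cells with at least 2, and to 33.1%, 21.1%, 65.4%, 49.6% and 18.5% for Vegfa, Kdr, Flt1, Tek and Tie1 and 5.43% for Aplnr in the others. The interaction counted 4 genes with a gate of 1 UMI (Vegfa 0.11, Aplnr 0.47), 6 with 2 per 10000 (Vegfa 0.17, Aplnr 1.19) and 0 with 3 UMIs (Aplnr 0.71).

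Leaving out 1 mouse at a time, treatment counts ranged from 0 to 16 in the cells with at least 2 (16 without IgG1 replicate 3, 10 without IgG1 replicate 2), 0 to 3 in those with under 2, 0 to 49 in fibroblast-like (49 without ipilimumab replicate 3), 0 to 2 in epithelial-like, 0 to 1 in NK-like and 0 to 1 in neutrophil-like cells, and 7 to 18 for the interaction. In the cells with at least 2, Kdr ranged from -0.18 to 0.0047 and Apln from -0.32 to 0.21. In those with under 2, Vegfa ranged from -0.23 to 0.12, Tek from -0.38 to 0.20 and Aplnr from -0.28 to 0.15. Fibroblast-like Tek ranged from -0.24 to 0.28, epithelial-like Vegfa from -0.84 to 0.79, leukocyte-like Vegfa from -0.088 to 0.33, Flt1 from -0.37 to 0.14 and Tek from -0.36 to 0.28, and alveolar macrophage-like Tek from -0.26 to 0.31. The subset difference of Flt1 ranged from -0.51 to -0.26, and the interaction of Aplnr from -0.57 to 0.22. The subset differences of Kdr, Tek and Vegfa kept their direction and their call under every alternative run. Those of Apln and Aplnr kept their direction where they passed the filter. Since each passes it only through the subset where it is higher, that kept direction tells little. With 14 pericyte-like cells no treatment test could be fitted, and with 33 Aplnr UMIs in the cells with at least 2 its treatment difference there was not tested.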

Other observations

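Lymphatic endothelial-like cells, 26 in all and too few per mouse for a comparison, carried several of the receptors. Pooled over mice, Kdr was 479 CPM, Tek 218, Flt1 182, Tie1 125 and Aplnr 25.0 CPM, beside 472 CPM of Flt4, the VEGF-C receptor that marks lymphatic vessels, and 590 CPM of its co-receptor Nrp2. Vegfa was 121 CPM, and Apln rested on 2 UMIs.

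Of the 39 cells of the smooth muscle-like cluster that scored as fibroblasts, 66.7% had a UMI of Angpt1 and 51.3% one of Vegfa. The pooled levels were 882 and 273 CPM. No UMI of Kdr, Flt1, Tie1 or Apln was counted in them. By counting error this allows a UMI in up to 7.69% of such cells and sets no limit on how many express the gene.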
